A study of Mus musculus with 11 samples.

Results

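The genes described here build and fill the lysosome: the subunits of the vacuolar proton pump, the cathepsins, and 10 further lysosomal genes named singly. They were found by symbol, as the rows that start with Atp6v or Atp6ap (25 rows), the rows that consist of Cts and 1 letter (18 rows), and Lamp1, Lamp2, Grn, Npc1, Npc2, Mcoln1, Tfeb, Gla, Gaa and Lipa, which gave 53 of the 36529 genes counted. The rule uses symbols and no measured value. The cells were BV2, a transformed line of mouse microglia that the labels place on the C57BL/6 strain, so every sample comes from the same line. In the first experiment, 3 samples received nApoE4 1–151, the amino-terminal fragment of human apolipoprotein E4 that ends at residue 151, at 25 μg/ml for 5 h, and 3 samples were untreated (ControlA). In the second experiment, 2 samples received nApoE3 1–151, the matching fragment of apolipoprotein E3, at the same dose and time, and 3 samples were untreated (ControlB). The fragments differ by an arginine (E4) in place of a cysteine (E3), and both were made with a histidine tag for purification. The methods describe conditioned media added to untreated cells while the labels name a PBS vehicle, so the control solution is uncertain. Each fragment was used in its own experiment, and fragment and experiment cannot be told apart.

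The depth was 39732710 to 44162511 gene counts per sample in the nApoE4 experiment and 55809688 to 69768666 in the nApoE3 experiment, where 3 counts equal 0.0430 to 0.0755 CPM (counts scaled to library size). Of 10 microglia and macrophage markers, 8 had enough counts to test in the nApoE4 experiment and 9 in the nApoE3 experiment, while Aif1 held at most 10 counts and Cx3cr1 at most 43 in any sample. Of 5 homeostatic microglia markers, P2ry12 and Gpr34 had no count in any sample, Sall1 held at most 2 and Siglech at most 10, and Tmem119 fell with both fragments (log2 fold change −0.98 and −2.40, adjusted p = 0.000595 and 2.82e-09). Among markers of other cell types, Nefl (neurons), Mog (oligodendrocytes), Cldn5 (endothelium) and Tpsb2 (mast cells) were at 0 everywhere and Aqp4 (astrocytes) held at most 1 count, but other markers of the same lists were counted and moved. The 4 endothelial markers summed to 150 to 177 CPM in ControlA and 62.4 to 71.7 CPM with nApoE4, and to 63.9 to 66.3 CPM in ControlB and 42.8 to 47.9 CPM with nApoE3, nearly all of it Kdr, a VEGF receptor, which fell with both (−1.33 and −0.55, adjusted p = 6.78e-07 and 4.39e-07). The astrocyte transporter gene Slc1a2 rose with both (2.69 and 2.05, adjusted p = 4.43e-07 and 5.35e-08), from 35 to 70 counts in the controls to 250 to 281 in the treated samples. The oligodendrocyte gene Mbp, at up to 1528 counts, fell with nApoE4 (−0.74, adjusted p = 0.00101). The part of these markers in the results below was not tested. Replicates varied more in the nApoE4 experiment (biological coefficient of variation 0.0838) than in the nApoE3 experiment (0.0262), and smaller changes passed the test in the latter.

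The lysosome digests what a microglial cell takes up. The V-ATPase pumps protons across its membrane, with the V1 sector hydrolyzing ATP in the cytosol and the V0 sector carrying the protons through the membrane, and many subunits are encoded by several isoform genes. Cathepsins are the proteases that work in the acid lumen, LAMP proteins line the membrane, and TFEB is the transcription factor best known for activating this set of genes through the palindrome CACGTG in their promoters.

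That palindrome was looked for in the RefSeq promoter sequences of GRCm38.p6, from 250 bases before to 50 bases after each start site (300 bases). Promoters were matched for 41 of the 53 genes. CACGTG, which reads the same on both strands, occurred in 12 of these 41 genes (29.3%) and in 2187 of all 27025 genes with a promoter (8.09%). The longer TCACGTGA, which contains it, occurred in 7 of the 41 (17.1%) and in 304 of the 27025 (1.12%). The stretches below hold the sites of 8 of these genes and were chosen to cover the pump, the cathepsins, the membrane genes and Gla. They are printed in the direction of transcription, capitals mark TCACGTGA where it occurs and CACGTG elsewhere, and each ends before the start site of its promoter entry.
Lamp1: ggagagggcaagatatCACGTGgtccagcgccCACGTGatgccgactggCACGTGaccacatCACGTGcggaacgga
Mcoln1: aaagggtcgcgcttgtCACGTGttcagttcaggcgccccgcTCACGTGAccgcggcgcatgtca
Gla: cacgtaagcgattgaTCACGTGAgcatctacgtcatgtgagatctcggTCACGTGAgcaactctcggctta
Ctsa: acaatgagcaaactgTCACGTGAtgcag
Ctsd: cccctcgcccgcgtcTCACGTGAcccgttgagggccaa
Ctsf: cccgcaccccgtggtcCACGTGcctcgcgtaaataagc
Atp6v0b: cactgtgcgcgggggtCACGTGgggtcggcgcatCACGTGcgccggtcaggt
Atp6v1a: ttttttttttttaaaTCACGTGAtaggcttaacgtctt

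The Lamp1 stretch lies at chr8:13159084-13159160 on the plus strand and holds 4 sites within the 77 bases before the start. The Mcoln1 stretch is chr8:3500432-3500495 (plus), the Gla stretch chrX:134601178-134601248 (minus) and the Atp6v0b stretch chr4:117887330-117887381 (minus), each with 2 sites. Ctsa has its site at chr2:164833745-164833772 (plus), Ctsf at chr19:4855070-4855107 (plus) and Atp6v1a at chr16:44139369-44139406 (minus). The stretches of Ctsa and Atp6v1a lie before a start site inside the gene. Ctsa spans 164832872 to 164841032 and Atp6v1a 44085402 to 44139702. For Ctsd the nearer of its 2 sites is printed, at chr7:142387904-142387941 (minus). A match describes the letters only and shows neither binding nor a cause of any value below.

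Tfeb itself fell with both fragments. With nApoE4 it was at 45.8, 47 and 42.1 CPM in ControlA and at 12.9, 14.7 and 12.4 CPM in the treated samples, a log2 fold change of −1.75 (SE 0.080, adjusted p = 8.43e-08). In the nApoE3 experiment it fell from 31.9, 31.2 and 30.7 CPM to 9.54 and 9.77 CPM, a log2 fold change of −1.70 (SE 0.045, adjusted p = 7.10e-12). In these bulk samples, less RNA per cell and fewer cells that express a gene cannot be told apart. The groups lay far apart in both experiments, with the highest treated sample at 14.7 CPM and the lowest control at 30.7 CPM. The fall was 3.35-fold with nApoE4 and 3.26-fold with nApoE3, and the fragments differed by −0.05 on the log2 scale (approximate 95% interval −0.25 to 0.14, adjusted p = 0.729). Tfeb lies on chromosome 17 from 47737037 to 47792416 of GRCm38.p6, and none of its exon bases overlapped another GENCODE gene.

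**Figure D1:**
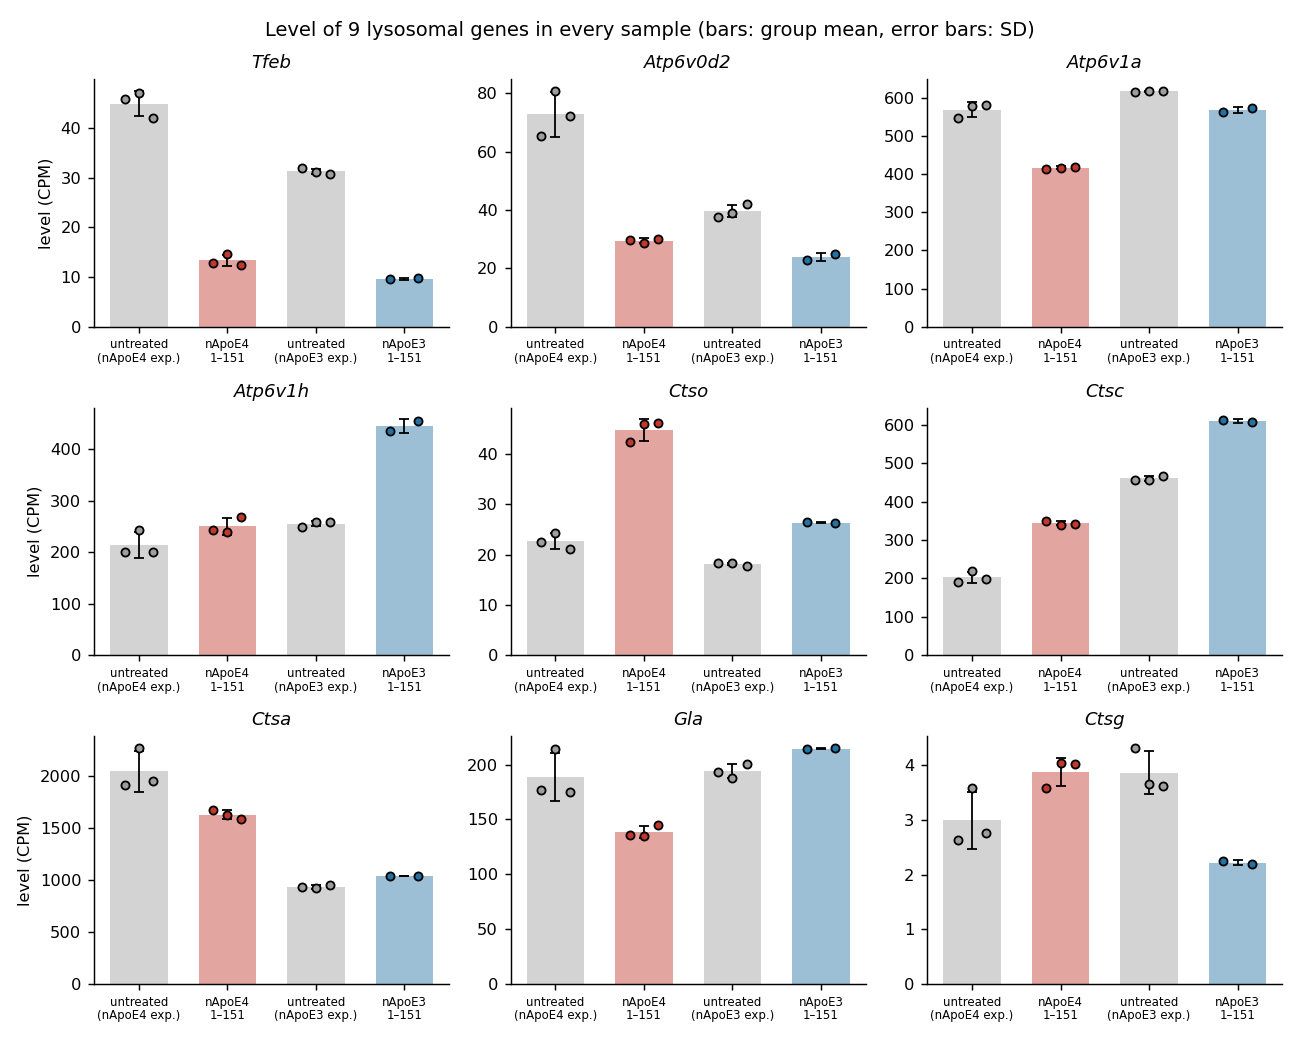
Level in CPM of 9 genes in each of the 11 samples, with 1 point per sample, bars at the group mean and error bars of 1 SD; each axis starts at 0. Tfeb, Atp6v0d2 and Atp6v1a were lower with both fragments than in their own controls, Ctso and Ctsc were higher with both, and Ctsa, Gla and Ctsg moved in opposite directions.

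The other genes moved in both directions. With nApoE4, 41 of the 53 genes had enough counts to test, and 5 rose and 13 fell, so 18 of 41 (43.9%) passed the test where 57.2% of all 14240 genes tested did (28.6% higher and 28.6% lower). Their median log2 fold change was −0.10, against 0.0013 over all genes tested. With nApoE3, 44 genes were tested, 21 rose and 15 fell, so 36 of 44 (81.8%) passed where 67.7% of all 14817 genes tested did (33.1% higher and 34.6% lower). The median was 0.12, against −0.0026 over all genes. The direction of the split with nApoE3 depended on the scaling, while with nApoE4 more genes fell than rose under each scaling tried. With library size alone in place of TMM, the median over all genes moved to −0.09 with nApoE4 and to −0.13 with nApoE3, and the split became 3 higher and 19 lower with nApoE4 and 12 higher and 18 lower with nApoE3. The rises with nApoE3 that were not called under library size alone were those of Atp6ap2, Atp6v0b, Atp6v0d1, Atp6v0e, Atp6v1f, Ctsa, Ctsk, Ctss and Gla. All 11 samples in one fit, with a spread shared by all groups, kept 24 of the 36 calls with nApoE3 and lost those of Atp6v0d1, Atp6v0e, Atp6v1b2, Atp6v1f, Ctsa, Ctsk, Ctsl, Ctss, Gla, Grn, Mcoln1 and Npc1.

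Most changes were small. Beyond Tfeb, Atp6v0d2 was the only one of the 53 past a 2-fold change at an adjusted p under 0.05 with nApoE4, where 17.7% of all genes were, and Atp6v1e2 the only one with nApoE3, where 16.2% were. Taken by call, 10 genes fell with both fragments (Atp6v0d2, Atp6v1a, Atp6v1b2, Atp6v1g1, Ctsd, Ctsf, Ctsh, Lipa, Npc1 and Tfeb), 3 rose with both (Atp6v0b, Ctsc and Ctso), and 3 passed the test in opposite directions (Ctsa, Ctsg and Gla). Another 15 rose and 4 fell with nApoE3 while not passing the test with nApoE4, and Atp6v1c1, Atp6v1d, Ctsw and Lamp1 passed it with neither fragment. Such joint counts were not made over all genes, of which 57.2% and 67.7% passed the single tests. These numbers therefore do not show whether the 53 genes stand out. The 9 genes tested in neither experiment held at most 9 counts in any sample, and Ctsj and Ctsr, which belong to the placental cathepsins, held none.

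**Figure D2:**
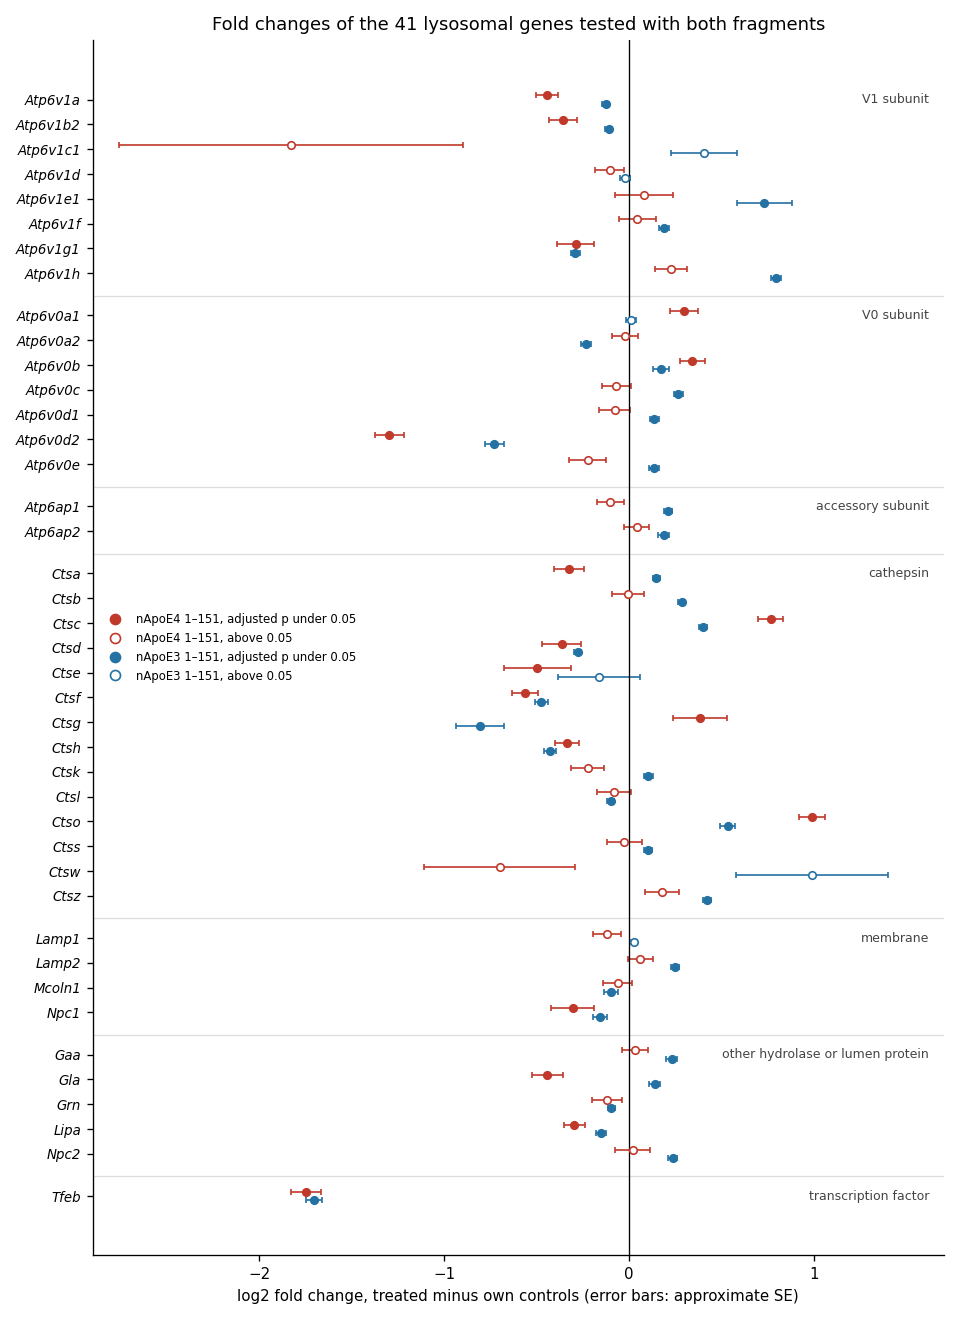
Log2 fold change of the 41 genes tested with both fragments (x axis), grouped by role (y axis), in red for nApoE4 1–151 and blue for nApoE3 1–151, with approximate SE as error bars and filled symbols where the adjusted p was under 0.05. Tfeb lies far to the left with both fragments, at −1.75 and −1.70, followed by Atp6v0d2, and the wide bars of Atp6v1c1 and Ctsw go with open symbols.

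Within the V1 sector, the catalytic core fell. Atp6v1a, which encodes the ATP-hydrolyzing subunit A, was at 547, 579 and 581 CPM in ControlA and at 412, 417 and 420 CPM with nApoE4, a log2 fold change of −0.45 (SE 0.060, adjusted p = 0.000158). The nApoE3 experiment gave 616, 618 and 616 CPM in the controls and 562 and 573 CPM with the fragment, a log2 fold change of −0.13 (SE 0.019, adjusted p = 8.29e-05). The treated and control groups did not overlap in either experiment, and the fall was larger with nApoE4 by 0.33 on the log2 scale (SE 0.060, adjusted p = 0.00122).

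Atp6v1b2, the nucleotide-binding subunit B of microglia and most other cells, was at 1032, 1217 and 1071 CPM in ControlA and at 876, 861 and 844 CPM with nApoE4 (log2 fold change −0.36, SE 0.077, adjusted p = 0.00294). In the nApoE3 experiment it went from 927, 940 and 927 CPM to 870 and 863 CPM (−0.11, SE 0.018, adjusted p = 0.000125). Atp6v1g1, a peripheral stalk subunit, moved from 291, 352 and 265 CPM to 243, 238 and 260 CPM with nApoE4 and from 262, 266 and 271 CPM to 222 and 216 CPM with nApoE3. Its log2 fold change was −0.29 with each fragment, but with nApoE4 the groups nearly touched and the call (adjusted p = 0.0298) was lost when any treated sample was left out. Of its 75-base windows, 12.5% also occur in transcripts of Gm12344 or Gm13453, so its counts are less certain.

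Atp6v1h, the regulatory subunit H, went the other way. It was at 249, 259 and 258 CPM in ControlB and at 435 and 454 CPM with nApoE3, a 1.73-fold rise (log2 fold change 0.79, SE 0.026, adjusted p = 5.17e-11). With nApoE4 it was at 200, 243 and 200 CPM in the controls and at 243, 239 and 268 CPM in the treated samples, where ControlA replicate 2 lay among the treated values (log2 fold change 0.23, SE 0.088, adjusted p = 0.0505). The 2 fold changes differed by −0.58 (SE 0.11, adjusted p = 0.00138), a call that held in all 19 alternatives tried. Of the central stalk subunits, Atp6v1d passed the test with neither fragment, and Atp6v1f rose with nApoE3 by 0.19 on the log2 scale (adjusted p = 8.37e-05) and had a log2 fold change of 0.04 (adjusted p = 0.735) with nApoE4.

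The C and E subunits, which every pump needs, were counted at very low levels here. Scaled by exon length, Atp6v1c1 and Atp6v1e1 had group means of 0.250 to 1.49 CPM per kb, while the other 6 well detected V1 subunits had 16.9 to 267 CPM per kb. None of the 75-base windows of either gene occurs in another GENCODE transcript. Sequence outside annotated transcripts was not searched, and a loss of reads in mapping was not tested. Atp6v1e1 had 69, 79 and 93 counts in ControlA, 82, 72 and 80 with nApoE4, 101, 86 and 76 in ControlB and 141 and 125 with nApoE3. It rose with nApoE3 by 0.73 on the log2 scale (SE 0.15, adjusted p = 0.00085), and both treated samples lay above every control.

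Atp6v1c1 had 932 counts in ControlA replicate 1 and 53 to 116 in each of the other 10 samples. Its log2 fold change with nApoE4 was −1.83 (SE 0.93, adjusted p = 0.122) with that library and 0.56 (SE 0.35, adjusted p = 0.221) without it. That library held 6 genes at over 5 times the level of both sister libraries, among them Trem2, while the other libraries of groups of 3 held 1 to 5.

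The testis-type isoform Atp6v1e2 appeared with both fragments at low counts. It had 2, 1 and 1 counts in ControlB and 19 and 20 with nApoE3, a ratio of 16.1 (95% counting interval 5.79 to 61.9, log2 fold change 3.88, adjusted p = 3.40e-05). The nApoE4 experiment gave 1, 0 and 0 counts without and 5, 8 and 7 counts with the fragment, a ratio of 21.6 (95% counting interval 3.46 to 895), and was too low to test. A lincRNA on the opposite strand covers 29.4% of its exon bases, and the strand setting of the counting is not given in the sources used here. Atp6v1g3 had 1, 0 and 1 counts in ControlA, 3, 9 and 8 with nApoE4 and at most 1 in the nApoE3 experiment, and it was named after its values were seen.

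**Figure D3:**
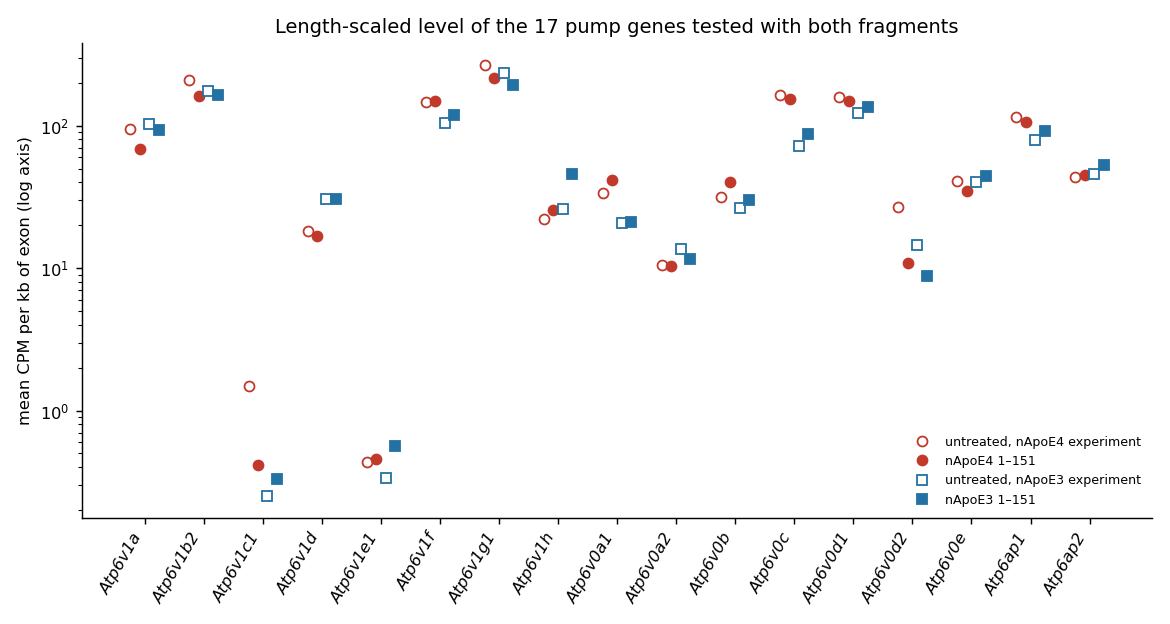
Mean level of the 17 pump genes tested with both fragments, in CPM per kb of exon on a log axis, with open symbols for untreated and filled symbols for treated groups, in red circles for the nApoE4 and blue squares for the nApoE3 experiment. Atp6v1c1 and Atp6v1e1 lie far below the other subunits in every group, and Atp6v0d2 shows the widest gap between open and filled symbols among the others.

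In the V0 sector, the d subunit isoforms parted. Atp6v0d2, the isoform known from osteoclasts and macrophages, was at 65.3, 80.9 and 72.2 CPM in ControlA and at 29.9, 28.6 and 30.2 CPM with nApoE4, 2.46-fold lower (log2 fold change −1.30, SE 0.080, adjusted p = 6.52e-07). With nApoE3 it fell from 37.8, 39.1 and 41.9 CPM to 23.0 and 24.9 CPM, 1.66-fold lower (−0.73, SE 0.052, adjusted p = 8.64e-08). Every treated sample lay below every control of either experiment, and the fall with nApoE4 was larger by 0.58 on the log2 scale (SE 0.11, adjusted p = 0.00157, called in all 19 alternatives).

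The widespread isoform Atp6v0d1 was at 267, 322 and 261 CPM in ControlA and 261, 270 and 271 CPM with nApoE4, and at 219, 216 and 227 CPM in ControlB and 241 and 246 CPM with nApoE3. It passed the test with nApoE3 (log2 fold change 0.14, adjusted p = 0.000493) and not with nApoE4 (−0.08, adjusted p = 0.442), and the difference between the fragments did not pass (adjusted p = 0.112). Per length, Atp6v0d2 made up 14.5 ± 0.800% of the d subunit messages in ControlA (SD, n = 3) and 6.80 ± 0.251% with nApoE4 (n = 3), and 10.6 ± 0.330% in ControlB (n = 3) and 6.10 ± 0.249% with nApoE3 (n = 2).

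Atp6v0a1, an isoform of the large a subunit, was at 219, 214 and 234 CPM in ControlA and at 267, 295 and 254 CPM with nApoE4, a rise of 0.30 on the log2 scale (SE 0.073, adjusted p = 0.00658) that was not called under library size alone. In the nApoE3 experiment it stayed between 132 and 139 CPM in all 5 samples, with a log2 fold change of 0.01 (SE 0.027, adjusted p = 0.791). Atp6v0a2, another isoform, fell by 0.23 with nApoE3 (adjusted p = 9.97e-06), had a log2 fold change of −0.02 (adjusted p = 0.785) with nApoE4, and did not differ past the threshold between the fragments (adjusted p = 0.0966). The a3 isoform Tcirg1, which the symbol rule does not find, had the largest share of the a subunit messages per length in every group. That share was 60.3 ± 1.91% in ControlA and 56.2 ± 1.14% with nApoE4, and 60.9 ± 0.490% in ControlB and 72.0 ± 0.349% with nApoE3 (SD, n = 3, 3, 3 and 2).

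Of the small V0 subunits, the proteolipid Atp6v0b rose with both fragments, by 0.34 (SE 0.068, adjusted p = 0.00192) with nApoE4 and 0.17 (SE 0.043, adjusted p = 0.0033) with nApoE3. The rise of Atp6v0b with nApoE3 was 0.04 under library size alone and was not called there or without ApoE3 replicate 1. The main proteolipid Atp6v0c rose with nApoE3 by 0.27 (adjusted p = 5.65e-07), had a log2 fold change of −0.07 (adjusted p = 0.489) with nApoE4, and differed between the fragments by −0.35 (adjusted p = 0.0136). Of the 75-base windows of Atp6v0c, 9.24% also occur in Atp6v0c-ps1 or Atp6v0c-ps2, and Gm12841 covers 11.8% of the Atp6v0b exon bases on the opposite strand. Atp6v0e was at 146, 177 and 134 CPM in ControlA and 129, 121 and 140 CPM with nApoE4, where the groups overlapped, and at 148, 150 and 150 CPM in ControlB and 169 and 161 CPM with nApoE3, where they did not (log2 fold change 0.13, adjusted p = 0.000827). The accessory subunits Atp6ap1 and Atp6ap2, the latter also known as the prorenin receptor, rose with nApoE3 by 0.21 and 0.19 and passed no test with nApoE4.

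Over the pump as a whole, 2 genes rose and 4 fell of 17 tested with nApoE4, and 10 rose and 5 fell of 20 tested with nApoE3, so 6 of 17 (35.3%) and 15 of 20 passed the test where 57.2% and 67.7% of all genes did. The summed level of its 13 V1 genes was 2315, 2671 and 2338 CPM in ControlA and 2014, 1985 and 2044 CPM with nApoE4, so each treated sample was below each control. In the nApoE3 experiment the V1 sum was 2310, 2335 and 2331 CPM in the controls and 2362 and 2373 CPM with the fragment. As a share of all counts it fell there, from 0.234, 0.237 and 0.235% to 0.216 and 0.219%. The direction of the V1 sum with nApoE3 thus depended on the scaling.

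Among the cathepsins, 3 rose and 5 fell of 14 tested with nApoE4, and 7 rose and 5 fell of 14 with nApoE3. These shares of 57.1% and 85.7% stand beside 57.2% and 67.7% of all genes. Ctso, a little-studied cysteine protease, was at 22.5, 24.4 and 21.2 CPM in ControlA and at 42.4, 46 and 46.1 CPM with nApoE4, 1.98-fold higher (log2 fold change 0.99, SE 0.071, adjusted p = 1.84e-06). With nApoE3 it rose from 18.3, 18.3 and 17.9 CPM to 26.5 and 26.3 CPM (0.53, SE 0.040, adjusted p = 1.20e-07). The treated samples were above every control in both experiments, and the rise was larger with nApoE4 by 0.44 (SE 0.085, adjusted p = 0.00178).

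Ctsc encodes the dipeptidyl peptidase that activates granule serine proteases. It was at 190, 220 and 200 CPM in ControlA and 349, 340 and 343 CPM with nApoE4 (log2 fold change 0.76, SE 0.067, adjusted p = 8.09e-06), and at 456, 457 and 467 CPM in ControlB and 613 and 607 CPM with nApoE3 (0.40, SE 0.020, adjusted p = 3.29e-09). Every sample of the nApoE3 experiment, untreated ones included, lay above every sample of the nApoE4 experiment, and ControlB was above ControlA by 1.16 on the log2 scale (SE 0.057, adjusted p = 1.39e-06). Ctsg, a serine protease that CTSC activates, was much lower, at 2.63, 3.59 and 2.76 CPM in ControlA and 3.59, 4.04 and 4.03 CPM with nApoE4, and at 4.32, 3.67 and 3.62 CPM in ControlB and 2.25 and 2.20 CPM with nApoE3.

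For Ctsg the fall with nApoE3 was −0.81 on the log2 scale (SE 0.13, adjusted p = 0.000125). Its rise with nApoE4 of 0.38 (SE 0.15, adjusted p = 0.0487) was lost in 11 of 15 alternatives, but the difference between the fragments of 1.18 (SE 0.20, adjusted p = 0.000713) was called in all 19. Of 5 neutrophil and mast cell markers, Tpsb2 was at 0 and Mpo at most at 1 count in any sample, while Prtn3, Cpa3 and Elane reached 33, 26 and 16 counts. Their summed level was 0.691 to 1.39 CPM in ControlA and 0.378 to 0.674 CPM with nApoE4, and 0.355 to 0.630 CPM in ControlB and 0.189 to 0.195 CPM with nApoE3. Prtn3 fell with nApoE4 (−1.09, adjusted p = 0.028) and Cpa3 with nApoE3 (−1.77, adjusted p = 0.00504), each the only one of the list with enough counts to test there, and their part in the Ctsg values was not tested.

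The cathepsins that fell with both fragments were Ctsd, Ctsf and Ctsh. Ctsf, a cysteine protease of lysosomes, was at 107, 123 and 109 CPM in ControlA and 79.8, 71.3 and 77.1 CPM with nApoE4 (log2 fold change −0.56, SE 0.072, adjusted p = 0.000113). With nApoE3 it went from 63.5, 59.8 and 61.4 CPM to 44.4 and 44.7 CPM (−0.47, SE 0.035, adjusted p = 1.03e-07). Both groups were well apart in each experiment.

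Ctsh, an aminopeptidase, was at 105, 116 and 101 CPM in ControlA and 85.4, 81.3 and 87.5 CPM with nApoE4 (−0.34, SE 0.066, adjusted p = 0.00185), and at 83.7, 85.4 and 88.7 CPM in ControlB and 63.4 and 64.8 CPM with nApoE3 (−0.43, SE 0.033, adjusted p = 1.70e-07). Ctsd, the main aspartic protease, fell by 0.37 (SE 0.10, adjusted p = 0.0136, not called without ApoE4 replicate 1) with nApoE4 and by 0.28 (SE 0.019, adjusted p = 5.71e-08) with nApoE3. Gm49369 covers 34.4% of the Ctsd exon bases on the same strand, so reads there may have been left uncounted. Ctse, the aspartic protease of the endosome, was at 1.90, 1.45 and 1.82 CPM in ControlA and 1.12, 1.32 and 1.21 CPM with nApoE4 (−0.50, SE 0.18, adjusted p = 0.041), a call lost in 8 of 15 alternatives.

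Ctsa, a carboxypeptidase that also protects other lysosomal enzymes, was at 1917, 2273 and 1953 CPM in ControlA and 1674, 1625 and 1590 CPM with nApoE4 (log2 fold change −0.32, SE 0.082, adjusted p = 0.00717). With nApoE3 it went from 934, 921 and 952 CPM to 1043 and 1038 CPM (0.15, SE 0.019, adjusted p = 2.43e-05), a rise that was not called under library size alone. The groups did not overlap in either experiment, and the difference between the fragments of −0.48 (SE 0.088, adjusted p = 0.0012) was called in all 19 alternatives. Opposite-strand exons of Neurl2 and Pltp cover 17.4% of the Ctsa exon bases.

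Of the other cysteine cathepsins, Ctsb, Ctsk, Ctsl, Ctss and Ctsz had log2 fold changes with nApoE4 between −0.22 (Ctsk) and 0.18 (Ctsz), and none passed the test. With nApoE3, Ctsb, Ctsk, Ctss and Ctsz rose, by 0.28, 0.10, 0.10 and 0.42, and Ctsl fell by 0.10. The rises of Ctsb and Ctsz were past the threshold under library size alone too, whereas Ctsk and Ctss turned to −0.028 and −0.029 and lost the call, and the calls of Ctsk, Ctsl and Ctss were also lost with all 11 samples in one fit. Ctsb and Ctsk differed between the fragments (−0.30, adjusted p = 0.0266, and −0.34, adjusted p = 0.0321). Other genes cover 26.8% of the Ctsl exon bases on the opposite strand and 6.09% on the same strand. Fdft1 covers 12.8% of the Ctsb exon bases on the opposite strand. Of the 75-base windows of Ctsl and Ctsb, 24.6% and 11.8% also occur in transcripts of other genes, so their counts are less certain.

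Of the membrane genes, Lamp1, which encodes the main glycoprotein of the lysosomal membrane, was at 1052, 1229 and 1075 CPM in ControlA and 1026, 1015 and 1036 CPM with nApoE4, and at 1096, 1099 and 1104 CPM in ControlB and 1108 and 1138 CPM with nApoE3. Neither change passed the test, with log2 fold changes of −0.12 (approximate 95% interval −0.27 to 0.03) and 0.02 (−0.01 to 0.06). Lamp2, needed for the fusion of autophagosomes with lysosomes, was at 570, 634 and 587 CPM in ControlA and 617, 602 and 641 CPM with nApoE4, and at 690, 718 and 708 CPM in ControlB and 844 and 838 CPM with nApoE3. Only the last group stood apart (log2 fold change 0.25, SE 0.021, adjusted p = 4.49e-07).

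Mcoln1, the lysosomal calcium channel TRPML1, was at 74.6, 66.3 and 78.7 CPM in ControlA and 68.3, 74.7 and 66.7 CPM with nApoE4, and at 31.1, 30.5 and 31.3 CPM in ControlB and 29.0 and 29.1 CPM with nApoE3. The fragments moved it by −0.06 (adjusted p = 0.526) and −0.10 (adjusted p = 0.0297, lost in 8 of 14 alternatives), while the untreated groups were 2.39-fold apart. Npc1, the membrane protein that exports cholesterol, was at 53.7, 41.6 and 58.9 CPM in ControlA and 40.1, 44.1 and 40.2 CPM with nApoE4, and at 73.1, 70.4 and 70.1 CPM in ControlB and 61.8 and 66.4 CPM with nApoE3. It fell by 0.31 (adjusted p = 0.045, groups overlapping, lost in 8 of 15 alternatives) and 0.16 (adjusted p = 0.002).

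Of the lumenal proteins, Npc2, the cholesterol carrier that hands over to NPC1, was at 531, 663 and 520 CPM in ControlA and 585, 560 and 583 CPM with nApoE4, and at 454, 466 and 474 CPM in ControlB and 555 and 544 CPM with nApoE3. It rose with nApoE3 (log2 fold change 0.23, adjusted p = 1.78e-06) and was at 0.02 with nApoE4 (adjusted p = 0.884), but the difference between the fragments did not pass the test (adjusted p = 0.156). Grn, the precursor of the granulins, was at 1319, 1484 and 1329 CPM in ControlA and 1215, 1365 and 1211 CPM with nApoE4, and at 988, 978 and 984 CPM in ControlB and 939 and 909 CPM with nApoE3 (−0.10, adjusted p = 0.000735).

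Lipa, the acid lipase that frees cholesterol from its esters, fell with both fragments. It was at 316, 333 and 327 CPM in ControlA and 264, 268 and 259 CPM with nApoE4 (log2 fold change −0.30, SE 0.057, adjusted p = 0.00149), and at 437, 435 and 450 CPM in ControlB and 385 and 411 CPM with nApoE3 (−0.15, SE 0.029, adjusted p = 0.000506). Gaa, the acid glucosidase that degrades glycogen, was at 121, 110 and 118 CPM in ControlA and 112, 128 and 116 CPM with nApoE4, and rose from 127, 122 and 129 CPM to 147 and 149 CPM with nApoE3 (0.23, adjusted p = 1.70e-05).

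Gla, the alpha-galactosidase that is deficient in Fabry disease, was at 177, 214 and 175 CPM in ControlA and 136, 135 and 144 CPM with nApoE4 (log2 fold change −0.44, SE 0.083, adjusted p = 0.00133). With nApoE3 it went from 193, 188 and 201 CPM to 214 and 215 CPM (0.14, SE 0.029, adjusted p = 0.00105), a rise not called under library size alone. The untreated groups were at 189 ± 21.8 and 194 ± 6.66 CPM (SD, n = 3 each) and did not pass a test between them (adjusted p = 0.79). The difference between the fragments of −0.59 (SE 0.10, adjusted p = 0.000843) was called in all 19 alternatives.

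Tested against each other, the responses to the fragments differed for 16 of 44 genes (36.4%), 4 more positive and 12 more negative with nApoE4, where 28.3% of all 15287 genes tested did (14.4% more positive and 13.9% more negative). The more positive ones were Atp6v0a1, Ctsc, Ctsg and Ctso. The more negative ones were Atp6ap1, Atp6v0c, Atp6v0d2, Atp6v0e, Atp6v1a, Atp6v1b2, Atp6v1e1, Atp6v1h, Ctsa, Ctsb, Ctsk and Gla. Ctsg was the only one to differ by more than 2-fold, where 5.93% of all genes did. The calls for Atp6v0d2, Atp6v1h, Ctsa, Ctsg and Gla were made in all 19 alternatives. The fewest alternatives called Atp6v1b2, Atp6v0e and Ctsk, with 8, 9 and 10 of 19. Without ApoE3 replicate 1, 9 of the 16 calls remained, all with their direction.

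**Figure D4:**
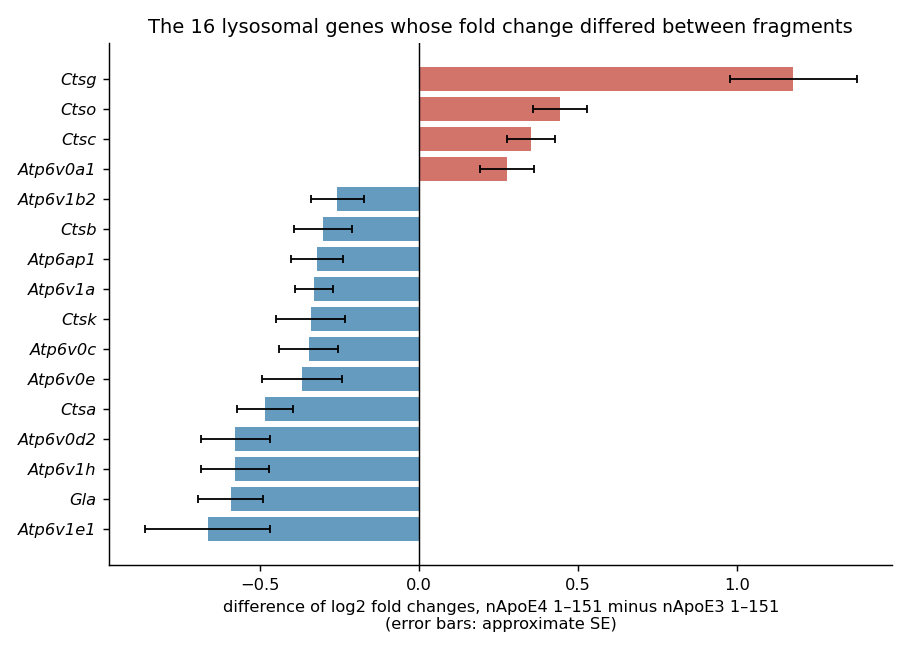
Difference of the log2 fold changes, nApoE4 1–151 minus nApoE3 1–151 (x axis), for the 16 genes that passed the test of the difference, with approximate SE as error bars. Ctsg reaches 1.18, Ctso, Ctsc and Atp6v0a1 lie between 0.28 and 0.44, and the other 12 lie between −0.66 and −0.26.

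Untreated cells of the experiments also differed in these genes. Between ControlB and ControlA, 32 of 41 genes tested (78.0%) differed, 9 higher and 23 lower in ControlB, where 69.3% of all 14249 genes did (34.4% higher and 34.9% lower), and the median log2 difference was −0.34. A difference of more than 2-fold was called for 7 of the 41, where it was for 17.9% of all genes. The largest at 1 CPM or more, beside Atp6v1c1, were those of Mcoln1 (−1.26, adjusted p = 1.98e-06), Ctse (−1.24, adjusted p = 0.000398), Atp6v0c (−1.19, adjusted p = 2.52e-06), Ctsc (1.16) and Ctsa (−1.15, adjusted p = 3.24e-06). ControlA replicate 2 had the highest value of its group in 31 of the 40 genes with a ControlA mean of at least 1 CPM, and its summed level of the 53 genes was 24710 CPM, against 20897 and 20865 CPM in its sister libraries. Without it, all 18 calls with nApoE4 remained and Atp6v1c1, Atp6v1f, Atp6v1h and Ctsz were added, of which the call for Atp6v1c1 rests on ControlA replicate 1. The summed share of the 53 genes was 2.24, 2.51 and 2.24% of all counts in ControlA and 2.01, 2.03 and 2.03% with nApoE4, and 1.90, 1.89 and 1.93% in ControlB and 1.83 and 1.84% with nApoE3. With TMM scaling the sum was also lower with nApoE4, at 20430, 20220 and 20523 CPM. With nApoE3 it went the other way, from 18783, 18663 and 19144 CPM in ControlB to 20037 and 19930 CPM. The direction of the sum with nApoE3 thus depended on the scaling.

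By call, the palindrome CACGTG was held by 5 of the 7 genes with a promoter sequence that fell with nApoE4, 1 of the 5 that rose and 6 of the 18 that passed no test. A promoter sequence was matched for only those 7 of the 13 genes that fell with nApoE4, but for all 5 that rose. With nApoE3 the palindrome was held by 5 of 9 that fell, 6 of 19 that rose and 1 of 5 that passed no test. Those 9 and 19 genes had a promoter sequence among 15 that fell and 21 that rose. Shares by call were not computed over all genes, and a link between the palindrome and direction was not tested. Among the genes that held it, Lamp1, with 4 sites, and Mcoln1, with 2, lay beside changes of 0.12 or less on the log2 scale in both experiments. Atp6v0b rose and Ctsd, Ctsf and Atp6v1a fell with both fragments, while Ctsa and Gla fell with nApoE4 and rose with nApoE3. Atp6v0d1, Atp6v0e and Gaa rose and Ctsl fell with nApoE3, and none of these passed the test with nApoE4. The 3 promoters of Tfeb held none in this window.

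The related factors of the MiT family, which bind the same palindrome, did not share the fall of Tfeb. Tfec was at 13.0, 16.3 and 14.4 CPM in ControlA and 95.9, 90.2 and 93.3 CPM with nApoE4 (log2 fold change 2.68, SE 0.082, adjusted p = 5.68e-09), and at 30.8, 30.7 and 33.9 CPM in ControlB and 83.5 and 88.5 CPM with nApoE3 (1.43, SE 0.045, adjusted p = 3.33e-11). Mitf rose by 0.95 (SE 0.10, adjusted p = 2.93e-05) and 0.94 (SE 0.033, adjusted p = 8.34e-11), and Tfe3 by 0.28 (SE 0.075, adjusted p = 0.0097) and 0.14 (SE 0.049, adjusted p = 0.0269, called in 4 of 14 alternatives). Mitf and Tfe3 were named to complete the family after their values were seen. Rragd, a Rag GTPase that recruits mTORC1 to lysosomes, fell with both (−1.08 and −1.51, adjusted p = 8.37e-07 and 6.73e-12), and Fnip2, a partner of folliculin, fell with nApoE4 (−0.99, adjusted p = 0.00118) and differed between the fragments by −1.0 (adjusted p = 0.0063). Of 17 genes of this family and of lysosomal mTORC1 signaling tested, 5 rose and 4 fell with nApoE4 and 9 rose and 4 fell with nApoE3, a split that became 4 and 6, and 5 and 6, under library size alone. The shares called were 52.9% and 76.5%, beside 57.2% and 67.7% of all genes.

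**Figure D5:**
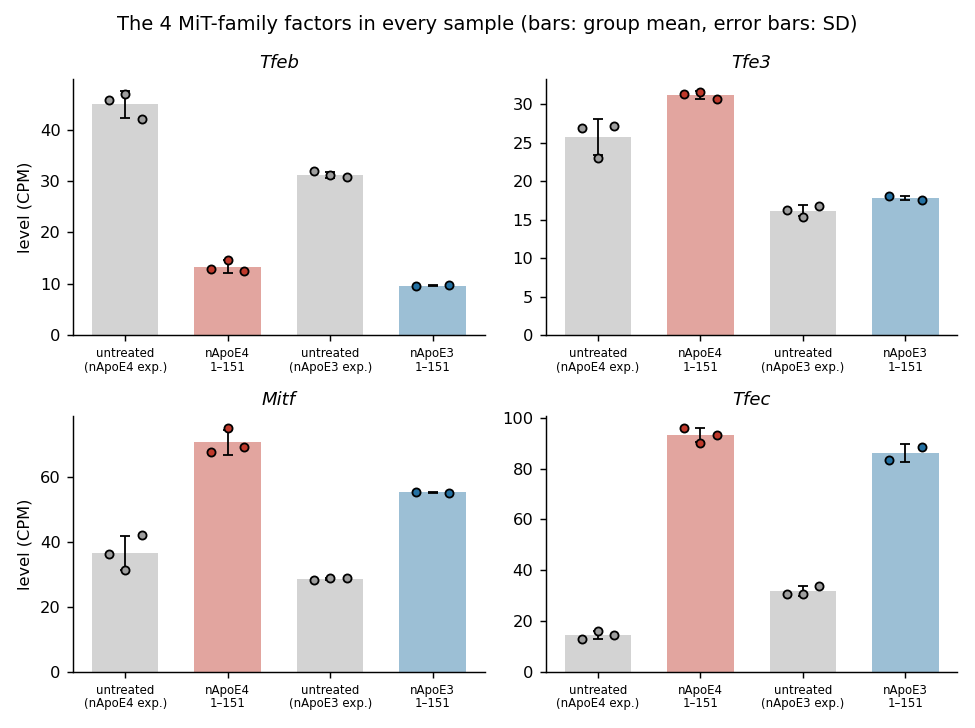
Level in CPM of the 4 MiT-family genes in each of the 11 samples, with 1 point per sample, bars at the group mean and error bars of 1 SD; each axis starts at 0. Tfeb is lower with each fragment than in its controls, while Mitf, Tfec and Tfe3 are higher.

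Among other lysosomal genes, several changes were larger than that of Tfeb. Of 43 other hydrolases and their activators tested with nApoE4, 6 rose and 24 fell, with a median of −0.25, and of 44 tested with nApoE3, 14 rose and 23 fell, with a median of −0.12 (8 and 29 under library size alone). So 69.8% and 84.1% passed the test, where 57.2% and 67.7% of all genes did. Acp5, the tartrate-resistant acid phosphatase, rose by 3.67 (adjusted p = 2.20e-08) with nApoE4 and 2.29 (adjusted p = 9.27e-14) with nApoE3 on the log2 scale. Sgsh, a sulfohydrolase of heparan sulfate, fell by 2.49 (adjusted p = 8.72e-08) and 2.78 (adjusted p = 1.13e-09), and Hyal1, a hyaluronidase, by 2.63 (adjusted p = 2.03e-07) and 0.65 (adjusted p = 0.000177).

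Of 28 other lysosomal membrane proteins, 6 rose and 13 fell with nApoE4 and 10 rose and 12 fell with nApoE3 (6 and 18 with nApoE3 under library size alone), which is 67.9% and 78.6% called beside 57.2% and 67.7% of all genes. Slc15a3, a peptide and histidine transporter, rose by 2.51 (adjusted p = 6.51e-09) and 2.68 (adjusted p = 7.94e-16), and Mcoln2, a channel related to Mcoln1, by 1.67 (adjusted p = 1.18e-08) and 2.17 (adjusted p = 2.02e-13). Ctns, the cystine transporter, had 180, 17 and 28 counts in ControlB and 11 and 11 with nApoE3, a log2 fold change of −2.56 (SE 0.86, adjusted p = 0.019). The value rests on ControlB replicate 1, without which Ctns was at −0.99 (adjusted p = 0.0608), and the call was also lost without either nApoE3 sample. Of the 3 cystatins tested, which inhibit cysteine cathepsins, Cst7 rose by 1.17 (adjusted p = 1.98e-06) and 0.55 (adjusted p = 6.90e-07), Cst3 fell by 0.41 (adjusted p = 0.00779) and 0.28 (adjusted p = 8.95e-06), and Cstb rose with nApoE3 (0.40, adjusted p = 1.88e-07) and passed no test with nApoE4 (0.0039, adjusted p = 0.981).

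Of 13 genes of pump assembly and regulation, 5 rose and 5 fell with nApoE4 (4 and 7 under library size alone) and 4 rose and 8 fell with nApoE3, so 76.9% and 92.3% were called beside 57.2% and 67.7% of all genes. The TLDc-domain genes among them, whose proteins bind the V-ATPase, moved apart: Ncoa7 rose by 1.93 (adjusted p = 1.18e-08) and 0.85 (adjusted p = 3.60e-10), Oxr1 fell by 1.02 (adjusted p = 6.42e-07) and 1.10 (adjusted p = 3.69e-11), and Tldc2 rose with nApoE4 (0.93, adjusted p = 0.00466). Of 15 genes that sort hydrolases to the lysosome, 2 rose and 5 fell with nApoE4 and 3 rose and 5 fell with nApoE3 (3 and 11 with nApoE3 under library size alone). These are 46.7% and 53.3% called, both below the 57.2% and 67.7% of all genes. The mannose 6-phosphate receptors M6pr (0.53 and 0.90, adjusted p = 0.000253 and 9.05e-13) and Igf2r (0.66 and 0.43, adjusted p = 0.000328 and 1.22e-06) rose with both fragments, while Gnptab, which makes the phosphate tag, fell with both (−1.10 and −0.35, adjusted p = 8.52e-07 and 4.06e-08).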

How the data were processed

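RNA of 11 samples of BV2 cells in 4 groups was sequenced by the authors as single-end reads of 75 bases. Per the submitters' processing notes, reads were trimmed with Trim Galore 0.5.0, checked with FastQC 0.11.8, mapped to GRCm38.p6 with HISAT2 2.1.0 and counted on genes with HTSeq 0.11.0, and the authors deposited the raw counts per gene symbol without normalization. The annotation release, strand setting and overlap mode are not given in the sources used here. Reads that HTSeq assigned to no gene, or to several places, made up 22.3 to 24.0% of its totals and stayed out of library sizes and tests. The genes described and the further lists were chosen with earlier results of these data known.

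Counts were tested in R 4.3.3 with edgeR 4.0.16: genes kept by filterByExpr were scaled by TMM and tested by the quasi-likelihood F test, with p-values adjusted over all genes tested after Benjamini and Hochberg and called under 0.05. ApoE4 was set against ControlA, ApoE3 against ControlB and ControlB against ControlA, and an interaction contrast in a fit of all 4 groups tested the difference between fragments. SE was derived from F as |log2 fold change|/√F and is approximate, as are the intervals made from it. Fold changes come from each comparison's own fit, and CPM per sample uses TMM factors over all 11 samples, so the ratio of mean CPM can differ from the fold change. The paper speaks of averaged data from 3 independent measurements or trials, while the nApoE3 group here holds 2 samples. It does not say whether replicates were separate cultures, so p-values measure only the spread between these samples. Counting intervals (exact binomial, 95%) and the floor of 3 counts cover counting error only.

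Values in every sample are given for the 8 genes with the largest change per fragment and the 6 with the largest difference, at 1 CPM or more, for the genes named singly by the rule, and for the most abundant isoform per length of each pump subunit. From each further list, the 3 genes with the largest change are named. Levels per length use the exon union of GENCODE M21. Promoters were read from RefSeq tables of GRCm38.p6. The edgeR steps were tested on simulated data. Alternatives were the DESeq2 1.42.0 Wald test, DESeq2 size factors, library size alone, other count filters, thinned counts, all 11 samples in one fit, a replicate block, a test against a fold change of 1.2, and leaving out each sample in turn. Python 3.11.15, pandas 2.3.3, SciPy 1.17.1 and matplotlib 3.10.9 were used for tables and plots.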

Additional observations from a re-analysis of the deposited data

Results flagged for a closer look

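The change with nApoE4 1–151 differed from the change with nApoE3 1–151, by edgeR's quasi-likelihood test of the interaction at an adjusted p under 0.05, for 16 of the 44 genes tested. The differences of the log2 fold changes (nApoE4 minus nApoE3) were positive for Ctsg (1.18), Ctso (0.44), Ctsc (0.35) and Atp6v0a1 (0.28). They were negative for Atp6v1e1 (−0.66), Gla (−0.59), Atp6v1h (−0.58), Atp6v0d2 (−0.58), Ctsa (−0.48), Atp6v0e (−0.37), Atp6v0c (−0.35), Ctsk (−0.34), Atp6v1a (−0.33), Atp6ap1 (−0.32), Ctsb (−0.30) and Atp6v1b2 (−0.26). The share of 36.4% stands beside 28.3% of all genes tested, and fragment and experiment cannot be told apart.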

How the results depend on the processing

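The counts of the genes described moved most under a test against a fold change of 1.2, which by construction drops small changes. It left 2 higher and 5 lower with nApoE4, 6 higher and 5 lower with nApoE3 (5866 genes in all), 1 higher and 4 lower for the difference between fragments (2039 genes in all), and 5 higher and 15 lower in ControlB. Library size alone gave 3 higher with nApoE4 and 12 higher with nApoE3, and it reversed the log2 fold change with nApoE3 of Lamp1 (−0.11), Atp6v0a1 (−0.12), Ctsk (−0.028), Ctss (−0.029) and Atp6v0e (−1.55e-05). All 11 samples in one fit, where the pooled spread was used, gave 8 higher with nApoE4 but 14 higher and 10 lower with nApoE3. Leaving out 1 sample gave 4 to 8 higher and 10 to 14 lower with nApoE4 (8 higher without ControlA replicate 2), 20 to 22 higher and 14 to 15 lower with nApoE3, 3 to 5 higher and 6 to 17 lower for the difference (6 lower without ApoE3 replicate 1, 17 without ControlA replicate 2), and 6 to 13 higher and 21 to 24 lower in ControlB. Without one nApoE3 sample, the remaining sample is assumed to vary like the other groups. Atp6v1c1 lost its call between the untreated groups without ControlA replicate 1 (−0.18 in place of −2.59).

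Treated and control samples share replicate numbers. The deviations of same-numbered samples from their group means correlated at −0.17 to −0.0079 across 15287 genes over 5 pairs, so none was positive. In groups this small the deviations are tied to each other, and those of the nApoE3 samples are mirror images. These correlations therefore cannot decide whether same-numbered samples were paired. With the replicate block, the difference between the fragments was called for 2 higher and 4 lower of the genes described and for 2307 genes in all, from 4331.

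Of 4499 log2 fold changes of 73 genes under alternatives, 4048 kept their direction and side of the threshold, 273 lost the call and 83 gained one with the same direction, and 95 changed sign. Of the sign changes, 90 were between values called in neither fit, among them Atp6v1c1 with nApoE4 without ControlA replicate 1, and 5 are those under library size alone named above. Low counts limit Atp6v1c1, Atp6v1e1, Atp6v1e2, Ctse, Ctsg and Ctsw.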
